A study of Rattus norvegicus with 16 samples.

Results

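The circadian clock genes described here are Arntl, Clock, Per1, Per2, Per3, Cry1, Nr1d1, Nr1d2, Dbp and Ciart, which are 10 of the 21021 genes in the expression tables. They were chosen by their gene symbol, each symbol had 1 row in the tables, and all 10 passed the filter on low values. They were compared between groups because clock genes rise and fall over the day, so that groups collected at different hours can differ in them without any effect of a tumor. RNA came from dorsal root ganglia (DRGs), the clusters of sensory nerve cell bodies beside the spinal cord, on the operated side of adult female Sprague-Dawley rats, with the ganglia of 1 rat forming 1 sample. Tumor cell implantation (TCI) means that Walker 256 mammary carcinoma cells were injected into the left tibia, and ganglia were taken 1 day (TCI D1), 7 days (TCI D7) or 14 days (TCI D14) later. Sham rats were given PBS according to the sample labels, whereas the methods of the study describe boiled tumor cells, and their ganglia were collected on day 14 only. Each of the 4 groups had 4 samples. Replicate 2 of TCI D1 and replicate 3 of TCI D7 were left out by the study for their low correlation with the other samples, and the values below rest on the remaining 14 (4 sham, 3 TCI D1, 3 TCI D7, 4 TCI D14) with all 16 beside them where a call changes. The rats lived under a light/dark cycle, but the hour of collection is not given in the sources used here. TCI D1 and TCI D7 therefore differ from sham in treatment, in the time since surgery and possibly in the hour of collection, and these cannot be told apart. TCI D14 differs from sham in treatment and possibly in the hour of collection, and these cannot be told apart either.

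The mammalian clock is a loop of transcription factors. ARNTL (also called BMAL1) and CLOCK bind as a pair to E-box elements and switch on the Per and Cry genes, whose proteins return to the nucleus and inhibit the pair. The same pair drives Nr1d1 and Nr1d2, which encode the REV-ERB receptors that repress Arntl, and Dbp, a factor of the PAR bZIP family that acts on D-box elements of further genes. Ciart (CHRONO) encodes a repressor that binds ARNTL. In most rat and mouse tissues several genes driven through E-boxes, such as Dbp and Nr1d1, peak close together, though not all driven genes do. Arntl peaks at about the opposite time of day to Dbp and Nr1d1. Per1 also responds within hours to stress hormones and to cAMP signalling.

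The promoters of 4 members are shown because they hold letters that match elements of the loop, and binding to them was not measured. RefSeq windows (assembly GRCr8) were matched for 9 of the 10 members, with 11 windows in all, and the 250 bases before each transcript start were searched on both strands for the E-box CACGTG, its variant CACGTT, the D-box TTATGTAA, the RORE TAGGTCA that REV-ERB proteins bind, and the cAMP response element TGACGTCA. Capitals mark the matches, and each sequence reads 5′ to 3′ on the strand of its gene.
Arntl, chr1:176766078-176766327, plus strand: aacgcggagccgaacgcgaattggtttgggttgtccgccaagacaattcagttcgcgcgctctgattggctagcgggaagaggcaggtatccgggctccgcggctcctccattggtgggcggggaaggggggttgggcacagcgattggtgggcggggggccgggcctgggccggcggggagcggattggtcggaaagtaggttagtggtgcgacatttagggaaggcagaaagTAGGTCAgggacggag
Ciart, chr2:186112247-186112496, minus strand: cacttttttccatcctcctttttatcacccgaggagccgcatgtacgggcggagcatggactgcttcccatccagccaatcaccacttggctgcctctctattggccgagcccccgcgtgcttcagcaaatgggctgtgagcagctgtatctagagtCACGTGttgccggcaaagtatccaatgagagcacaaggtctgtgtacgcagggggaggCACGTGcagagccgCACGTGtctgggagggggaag
Nr1d1, start of a shorter transcript, chr10:84229455-84229704, minus strand: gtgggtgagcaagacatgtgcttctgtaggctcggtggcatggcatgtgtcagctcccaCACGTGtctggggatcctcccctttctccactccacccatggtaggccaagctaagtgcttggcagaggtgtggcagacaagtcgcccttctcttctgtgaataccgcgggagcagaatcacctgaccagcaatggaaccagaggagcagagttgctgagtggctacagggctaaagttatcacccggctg
Per2, chr9:99496994-99497243, minus strand: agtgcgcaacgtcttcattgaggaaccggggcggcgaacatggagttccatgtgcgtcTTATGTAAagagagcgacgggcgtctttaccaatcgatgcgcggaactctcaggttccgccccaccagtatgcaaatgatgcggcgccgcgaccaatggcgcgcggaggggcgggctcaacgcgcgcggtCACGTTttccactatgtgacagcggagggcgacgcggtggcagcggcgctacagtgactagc
The Ciart window held 3 copies of CACGTG, at 93 to 88, 35 to 30 and 21 to 16 bases before the start, while 5.59% of the 33469 rat promoter windows held at least 1. The Nr1d1 window held 1 copy at 191 to 186 bases, and the window of its longer transcript held the variant on the reverse strand, at 174 to 169 bases. The Arntl window held TAGGTCA at 16 to 10 bases before the start, a motif found in 2.26% of windows. The Per2 window held the D-box at 192 to 185 bases, found in 0.828% of windows, and CACGTT at 62 to 57 bases, found in 4.07%. The cAMP response element, present in 1.59% of windows, was in none of the 11. The windows of Dbp, Per1, Per3, Nr1d2 and Clock held none of these letters, which says nothing of elements farther away or inside the genes. The genome build behind the expression tables is not given in the sources used here, so these coordinates belong to GRCr8 alone.

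The measured unit was FPKM, fragments per kilobase of transcript relative to all mapped fragments, which is scaled for gene length so that levels of different genes can be set side by side. Over the 14 samples the mean levels ran from 22.6 FPKM for Dbp, 18.1 for Nr1d1, 12.4 for Nr1d2 and 10.9 for Per1 down to 2.89 for Cry1, 2.15 for Per2 and 1.80 for Ciart. Per3 (5.60), Clock (5.30) and Arntl (4.82) lay between them. Summed FPKM per sample lay between 436572 and 473959. Read depth is not in the tables, and an estimate from the smallest values of 39 genes put it between 0.941 and 1.17 times the median sample. Neuronal markers, which define a sensory ganglion, were high, with 7 of them summing to 7366 to 7902 FPKM in sham, 7438 to 7982 on TCI D1, 6555 to 7172 on TCI D7 and 6603 to 8219 on TCI D14. Against sham 3 of the 7 fell on TCI D7 and 2 on TCI D14. The sum of 10 skeletal muscle genes was 517.65 FPKM in sham replicate 4 and 23134 in TCI D7 replicate 3, against 9.83 to 21.6 in each of the other 14 samples. T cell markers summed to 5.17 to 7.79 FPKM in sham and 5.38 to 7.77 on TCI D1, but to 36.6 to 81.4 on TCI D7 and 30.3 to 88.1 on TCI D14. Adipocyte markers stayed at or under 0.45 FPKM in sum, and 5 endothelial genes summed to 45.0 to 52.9 FPKM in sham, 47.4 to 58.0 on TCI D1, 51.6 to 69.6 on TCI D7 and 45.0 to 58.2 on TCI D14, with 1 of the 5 called higher against sham on TCI D7. Of 3 satellite glia markers none was called on TCI D1, 1 rose and 1 fell on TCI D7 and 1 fell on TCI D14. Of 7 immediate early genes, whose levels follow recent stimulation or handling, 6 were tested. None was called on TCI D1, 2 rose and 1 fell on TCI D7, and 1 fell on TCI D14. No tested gene of any kind was called on TCI D1. Clock genes are active in most cell types, and in whole tissue a change in the cell types present and a change of RNA per cell cannot be told apart.

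**Figure D1:**
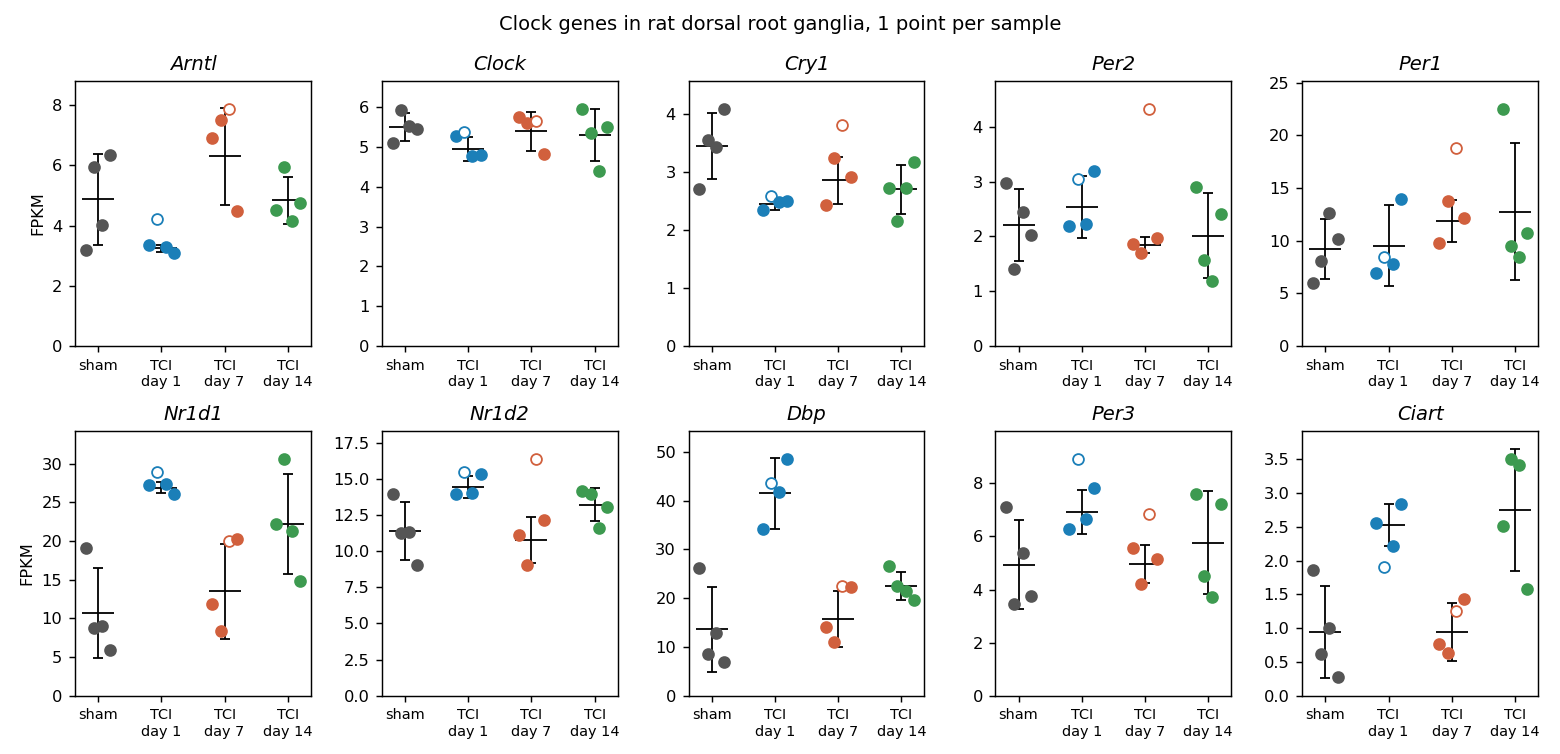
FPKM of the 10 clock genes in each sample, 1 panel per gene and 1 point per sample. Open circles are the 2 samples left out by the study, and bars show mean ± SD of the other samples in the group. For Dbp, Nr1d1 and Ciart the TCI D1 samples lie above every sham sample, and the sham samples themselves span a wide range.

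Among the genes driven through E-boxes, Dbp had the largest log2 difference between TCI D1 and sham. Sham replicates 1 to 4 had 26.13, 8.47, 12.93 and 6.89 FPKM, TCI D1 replicates 1, 3 and 4 had 34.15, 41.73 and 48.51, TCI D7 replicates 1, 2 and 4 had 14.14, 11.03 and 22.20, and TCI D14 replicates 1 to 4 had 26.55, 22.42, 21.45 and 19.58. The TCI D1 samples stood above all others, and sham replicate 1 stood with the TCI D14 samples. Sham replicate 3 lay within the range of TCI D7, and sham replicates 2 and 4 lay below it. The left-out replicate 2 of TCI D1, at 43.57 FPKM, lay within its group.

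Nr1d1, the REV-ERBα receptor, had 19.13, 8.71, 8.96 and 5.89 FPKM in sham and 27.24, 27.34 and 26.14 on TCI D1. It had 11.90, 8.33 and 20.32 FPKM on TCI D7 and 22.22, 30.59, 21.33 and 14.83 on TCI D14. The 3 TCI D1 samples lay close together (SD 0.666 FPKM) and the sham samples did not (SD 5.81), and sham replicate 1 was again the highest of its group. Nr1d1 shares 1061 bases of its span with Thra, a thyroid hormone receptor gene, and strand-specific counting is not stated, so reads from the shared end cannot be assigned with certainty. Thra itself was at 70.9 ± 2.79 FPKM in sham and 71.1 ± 1.77 (SD, n = 3) on TCI D1, and its log2 difference on TCI D14 was 0.05 (SE 0.06, limma, adjusted p = 0.637).

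Ciart, the CHRONO repressor, was low throughout. It had 1.86, 0.62, 1.00 and 0.28 FPKM in sham, 2.55, 2.21 and 2.83 on TCI D1, 0.77, 0.63 and 1.43 on TCI D7, and 2.51, 3.50, 3.41 and 1.58 on TCI D14. Its highest sample was 12.5 times its lowest, the widest span of the 10 genes over the 14 samples. TCI D1 did not overlap sham or TCI D7, and TCI D14 did not overlap TCI D7.

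Nr1d2, the second REV-ERB receptor, moved over a narrower range, from 9.02 to 15.32 FPKM. Its group means were 11.4 ± 2.0 FPKM in sham (SD, n = 4), 14.4 ± 0.763 on TCI D1 (n = 3), 10.8 ± 1.59 on TCI D7 (n = 3) and 13.2 ± 1.16 on TCI D14 (n = 4). Per3, a period gene under the same control, had means of 4.93 ± 1.68, 6.92 ± 0.812, 4.97 ± 0.706 and 5.76 ± 1.94 FPKM in the same order. In both, as in Dbp, TCI D1 had the highest mean and TCI D14 the next.

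Arntl, the activator, had 3.20, 5.94, 4.02 and 6.34 FPKM in sham, 3.34, 3.28 and 3.10 on TCI D1, 6.92, 7.51 and 4.48 on TCI D7, and 4.51, 5.95, 4.16 and 4.75 on TCI D14. Sham replicate 1, the sham sample with the most Dbp, had the least Arntl of the sham group, and replicate 4, with the least Dbp, had the most. All 3 TCI D1 samples lay below every TCI D7 and TCI D14 sample. Clock, its partner, stayed between 4.39 and 5.94 FPKM in all 14 samples, a span of 1.35-fold and the smallest of the 10 genes.

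The repressors Cry1, Per2 and Per1 showed smaller or less ordered differences. Cry1 was highest in sham, at 3.44 ± 0.568 FPKM (SD, n = 4), against 2.44 ± 0.0896 on TCI D1, 2.86 ± 0.407 on TCI D7 (n = 3 each) and 2.70 ± 0.418 on TCI D14 (n = 4). Per2 had group means between 1.84 and 2.54 FPKM with overlapping samples, apart from TCI D1 against TCI D7. Per1 had 22.46 FPKM in TCI D14 replicate 1 and 8.41 to 10.70 in the other 3 samples of that group. That sample also had the highest sum of 6 glucocorticoid-responsive genes among all 16, at 216.66 FPKM, and the part of this in the Per1 value was not tested.

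The first question was whether the clock genes differed between TCI D1 and sham. In the limma fit of log2(FPKM + 1), which adds 1 before the logarithm and so understates changes of low genes, none of the 10 passed an adjusted p of 0.05, and none of the 14023 genes tested did (0%). Of all tested genes 734 (5.23%) had an unadjusted p under 0.05, and the smallest adjusted p of any gene was 0.736. Dbp was the 4th gene of all by p, with a log2 difference of 1.70 (SE 0.34, unadjusted p = 0.00025), Nr1d1 the 18th at 1.37 (SE 0.34) and Ciart the 50th at 0.92 (SE 0.25). Cry1 had -0.36 (SE 0.12), Nr1d2 0.33 (SE 0.12), Arntl -0.43 (SE 0.19) and Per3 0.45 (SE 0.23), while Per2 (0.15), Clock (-0.13) and Per1 (0.03) were nearer to 0. At an unadjusted p under 0.05 there were 6 of the 10 clock genes, Dbp, Nr1d1, Ciart, Cry1, Nr1d2 and Arntl. The groups did not overlap for 5 of the 10 genes (Cry1, Nr1d1, Nr1d2, Dbp and Ciart), against 11.9% of all tested genes. With sham replicate 1 left out, the Dbp difference was 2.05 with an adjusted p of 0.0314, and with sham replicate 4 left out it was 1.46 with an adjusted p of 0.950. Schwann cell markers moved in the same direction, with 6 genes summing to 12417 to 13801 FPKM on TCI D1 and to 8375 to 11202 in sham, and their part in the clock gene values was not tested.

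**Figure D2:**
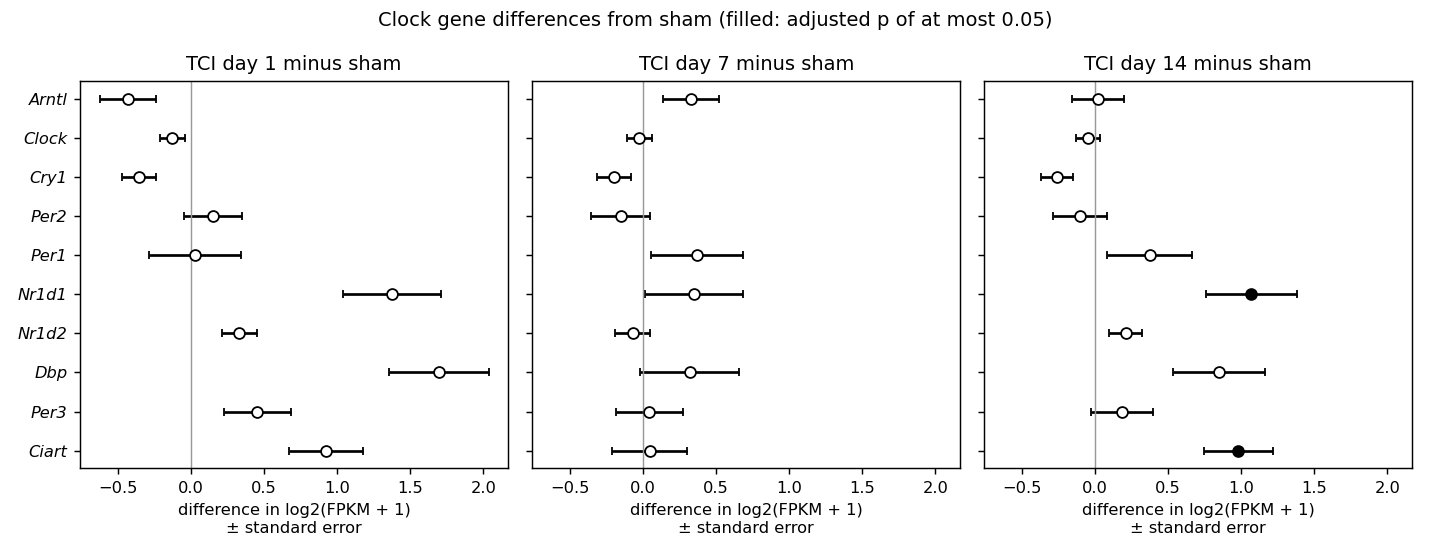
Difference in log2(FPKM + 1) of each clock gene from sham on TCI D1, D7 and D14, with bars of 1 SE from the limma fit over 14 samples. Filled points, Nr1d1 and Ciart on TCI D14, have an adjusted p of at most 0.05. Dbp, Nr1d1 and Ciart stand at 0.92 to 1.70 on TCI D1 and at 0.85 to 1.07 on TCI D14, and nearer to 0 on TCI D7.

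On TCI D7 none of the 10 clock genes passed the test against sham, while 17.9% of all tested genes did, and none had an unadjusted p under 0.05, against 31.2% of all tested genes. The log2 differences were between -0.20 for Cry1 and 0.37 for Per1, and those of Dbp (0.32, SE 0.34) and Nr1d1 (0.35, SE 0.34) were about as large as their errors. The median over the 10 genes was 0.04, as it was over all tested genes. Quantile normalization moved the median of all genes on TCI D7 from 0.04 to -0.07, and Cry1 was then called lower at -0.41 (limma, adjusted p = 0.0290).

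On TCI D14, the day on which sham was also collected, 2 of the 10 genes passed the test and both were higher, against 11.9% of all tested genes called higher, 3.21% called lower and 15.1% in either direction. At an unadjusted p under 0.05 there were 4 of the 10 (Ciart, Nr1d1, Dbp and Cry1), against 29.9%. Ciart rose from 0.940 ± 0.680 to 2.75 ± 0.899 FPKM (SD, n = 4 each), a log2 difference of 0.98 (SE 0.24, limma, adjusted p = 0.0148). Nr1d1 rose from 10.7 ± 5.81 to 22.2 ± 6.47 FPKM, a log2 difference of 1.07 (SE 0.31, adjusted p = 0.0355). Dbp went from 13.6 ± 8.73 to 22.5 ± 2.95 FPKM and did not pass (log2 difference 0.85, SE 0.31, adjusted p = 0.0884). For all 3 genes sham replicate 1 lay inside the range of TCI D14, so that the groups overlapped. Without sham replicate 1 the adjusted p values were 0.00707 for Ciart, 0.00964 for Nr1d1 and 0.00864 for Dbp. Without sham replicate 2 they were 0.0472 for Ciart and 0.219 for Dbp, and without sham replicate 4 they were 0.0411 and 0.216. Dbp did not pass when any sample other than sham replicate 1 was left out. The Nr1d1 call was lost when any 1 of 6 of the 8 samples was left out, with adjusted p from 0.0535 to 0.0985. These were sham replicates 2, 3 and 4 and TCI D14 replicates 1, 2 and 3, and the log2 difference was smallest, 0.85, without sham replicate 4, the sample with muscle RNA. In a fit of sham and TCI D14 alone neither gene passed, with adjusted p of 0.0535 for Ciart and 0.0721 for Nr1d1. Cry1 was called lower on TCI D14 under 2 other scalings. It was at -0.39 (limma, adjusted p = 0.0329) after quantile normalization and at -0.33 (adjusted p = 0.0486) with each sample centred on its median. On TCI D14, 6 of 6 T cell and 4 of 6 macrophage markers rose and 2 of 7 neuronal and 1 of 6 Schwann cell markers fell against sham, and their part in the clock gene values was not tested. By the cut-offs of the study, a log2 difference of at least 1 and an adjusted p of at most 0.001, none of the 10 was called, against 0.642% of all genes.

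The days of TCI were also compared with each other. Between TCI D7 and TCI D1, Arntl was higher on TCI D7 by 0.76 on the log2 scale (SE 0.21, limma, adjusted p = 0.0325) and Dbp lower, at -1.38 (SE 0.36, adjusted p = 0.0285). These 2 of 10 compare with 10.4% of all tested genes, 9.02% higher and 1.42% lower, and at an unadjusted p under 0.05 there were 5 of the 10 against 23.6%. Ciart (-0.88, SE 0.27, adjusted p = 0.0589), Nr1d2 (-0.40, SE 0.13, adjusted p = 0.0680) and Nr1d1 (-1.03, SE 0.36, adjusted p = 0.0926) did not pass. The 2 groups did not overlap for 7 of the 10 genes (Arntl, Per2, Per3, Nr1d1, Nr1d2, Dbp and Ciart), against 32% of all tested genes. Over all 16 samples 3 of the 10 genes were called, against 13% of all genes tested there, Arntl (adjusted p = 0.0117), Dbp (0.0131) and Ciart (0.0416). Both calls were lost when any 1 of 5 samples was left out, with adjusted p from 0.0795 to 0.138 for Arntl and from 0.0515 to 0.123 for Dbp. These samples were the 3 of TCI D1 and replicates 1 and 2 of TCI D7. Over the same contrast 4 of 6 Schwann cell markers fell and 6 of 6 macrophage and 6 of 6 T cell markers rose, and their part in these values was not tested.

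Between TCI D14 and TCI D1 none of the 10 genes passed, against 6.96% of all tested genes, and Dbp had the largest log2 difference at -0.85 (SE 0.34, adjusted p = 0.162). Between TCI D14 and TCI D7 none passed, against 0.0998% of all genes, and Ciart had the largest at 0.94 (SE 0.25, adjusted p = 0.231). At an unadjusted p under 0.05 there were 2 of the 10 in the first contrast (Arntl and Dbp), against 21.8% of all tested genes, and 2 in the second (Nr1d2 and Ciart), against 9.96%. A moderated F test over the 4 groups asked in 1 test per gene whether any group differed. It called 3 of the 10 clock genes, Ciart (adjusted p = 0.0166), Dbp (0.0169) and Nr1d1 (0.0321), against 16.5% of all tested genes. Arntl had 0.0928 in the 14 samples and 0.0483 in all 16.

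The clock was also summarised per sample. The score leaves out Per1, Per2 and Cry1, of which Per1 (0.03) and Per2 (0.15) had small log2 differences on TCI D1 and Cry1 (-0.36) went against the 5 driven genes, and it was set with earlier results known. It was taken as the mean log2(FPKM + 1) of Nr1d1, Nr1d2, Dbp, Per3 and Ciart minus the mean of Arntl, Clock and Npas2, the latter a relative of Clock that was below the filter. This difference was 1.91, 0.56, 1.13 and 0.36 in sham replicates 1 to 4 and 2.06, 2.14 and 2.31 in TCI D1 replicates 1, 3 and 4. It was 0.83, 0.47 and 1.46 in TCI D7 replicates 1, 2 and 4, and 1.68, 1.59, 1.70 and 1.47 on TCI D14. The sham and TCI D7 samples were spread widely, with SDs of 0.70 and 0.50 on the log2 scale, while TCI D1 and TCI D14 samples lay close together, with SDs of 0.13 and 0.11. The left-out samples had 2.05 (TCI D1) and 1.23 (TCI D7), inside or next to the values of their groups. The score holds members, so it is given as a description with no test.

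**Figure D3:**
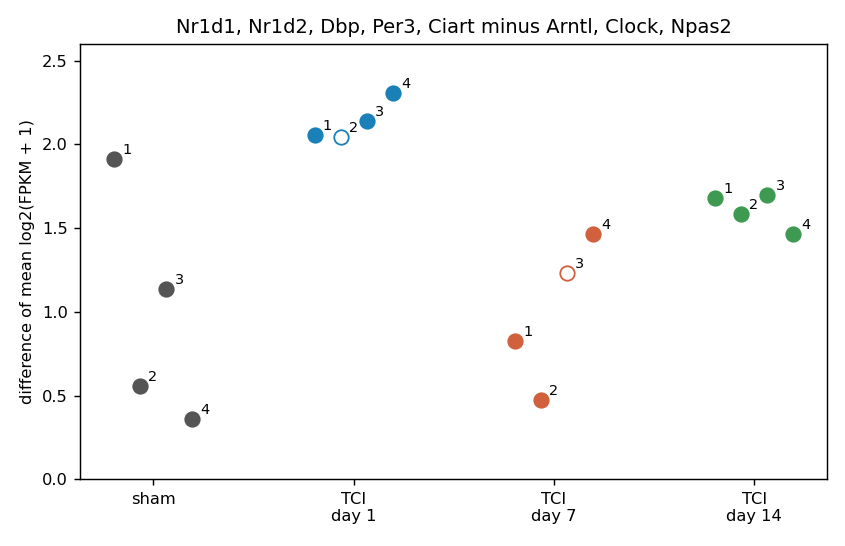
Mean log2(FPKM + 1) of Nr1d1, Nr1d2, Dbp, Per3 and Ciart minus that of Arntl, Clock and Npas2, 1 point per sample, by group, with open circles for the 2 left-out samples. Samples run from 0.36 to 1.91 in sham and from 2.05 to 2.31 on TCI D1.

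Samples of 1 group differed in the clock genes more than in most genes. The SD within groups of log2(FPKM + 1) was larger for Dbp and Nr1d1 than for 97.4% of the tested genes each, and larger for Per1 than for 96.9%, for Ciart than for 94.7%, for Per3 than for 93.5%, for Per2 than for 91.2% and for Arntl than for 90.8%. Nr1d2 (75.7%), Cry1 (70.5%) and Clock (49.4%) were nearer to the middle. Among the 500 genes nearest in level, the share was 98.8% for both Dbp and Nr1d1, 97.8% for Per1 and 92% for Per3. It was 91% for Ciart, 90.6% for Arntl, 86.4% for Nr1d2, 78.4% for Per2, 52.8% for Cry1 and 38.8% for Clock. Clock had the least spread of the 10. These ranks describe 14 samples, and the source of the spread was not tested.

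**Figure D4:**
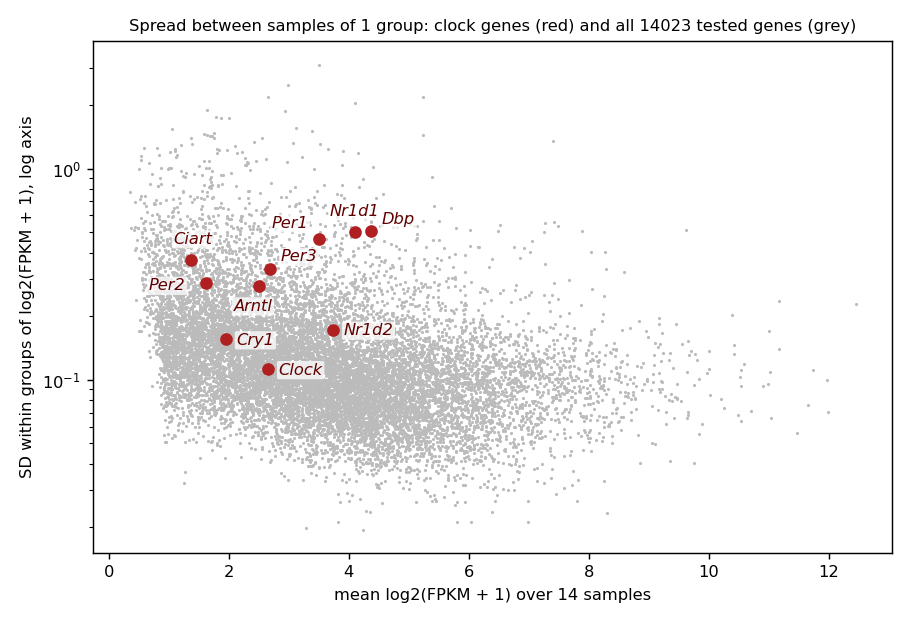
SD within groups of log2(FPKM + 1) (log axis) against the mean level over 14 samples for all 14023 tested genes (grey), with the 10 clock genes in red. Dbp and Nr1d1 lie above 97.4% of genes and Clock above 49.4%.

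Whether the clock genes varied together between samples was examined through the relation of Arntl to the other 9 members on log2(FPKM + 1). Over the 14 samples Dbp had a Pearson r of -0.79 with Arntl (Spearman rho -0.74, permutation p = 0.00075 and adjusted p = 0.00675 over the 9 pairs for r) and Nr1d2 had -0.75 (rho -0.71, adjusted permutation p = 0.0103). Per3 (r = -0.64, rho -0.54), Nr1d1 (-0.63, rho -0.54) and Ciart (-0.62, rho -0.53) each had an adjusted permutation p of 0.0363 for r. For rho their adjusted permutation p was 0.0701 each. Per2 had r = -0.58 (rho -0.62) and Clock r = 0.58 (rho 0.64), each with an adjusted permutation p of 0.0411 for r. Cry1 (0.37, rho 0.31, adjusted permutation p = 0.214) and Per1 (0.22, rho 0.24, adjusted permutation p = 0.454) did not pass, so that 7 of the 9 pairs passed by r and 4 by rho. The 14022 other tested genes were also ranked from the highest r to Arntl. Clock was the 1188th, Per2 the 13699th, Ciart the 13809th and Nr1d1 the 13844th. Per3 was the 13864th, Nr1d2 the 14001st and Dbp the 14015th. The share of all tested genes that would pass the same permutation test was not computed. Fewer pairs passed when group differences or single samples were taken away, while within the 14 samples r stayed of about the same size for most pairs. On deviations from the group means, with permutation inside groups, Dbp had r = -0.87 with an adjusted p of 0.0572 and none of the 9 pairs passed. Without TCI D7 replicates 1 and 2, the samples farthest from the median of Arntl, 1 pair passed, Dbp at r = -0.80 (adjusted permutation p = 0.0161). In all 16 samples 3 pairs passed by r, Dbp at -0.67 (adjusted permutation p = 0.0398), Ciart at -0.60 (0.0477) and Clock at 0.59 (0.0477). The values of Nr1d2 (-0.43, adjusted permutation p = 0.119), Per3 (-0.47, 0.104), Nr1d1 (-0.53, 0.0844) and Per2 (-0.17, 0.523) did not pass there. On deviations from the group means in all 16 samples none of the 9 pairs passed. There r was -0.68 for Dbp, -0.63 for Ciart and 0.59 for Clock. It was -0.47 for Nr1d1, -0.33 for Per3, -0.22 for Nr1d2 and -0.11 for Per2. After quantile normalization of the 14 samples Clock was at r = 0.17 (adjusted permutation p = 0.711) and the other 6 pairs still passed. The sign of r was negative in each of these forms for Dbp, and also for Per2, Per3, Nr1d1, Nr1d2 and Ciart. No pair, Dbp included, passed on deviations, and Dbp alone passed without those 2 samples.

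**Figure D5:**
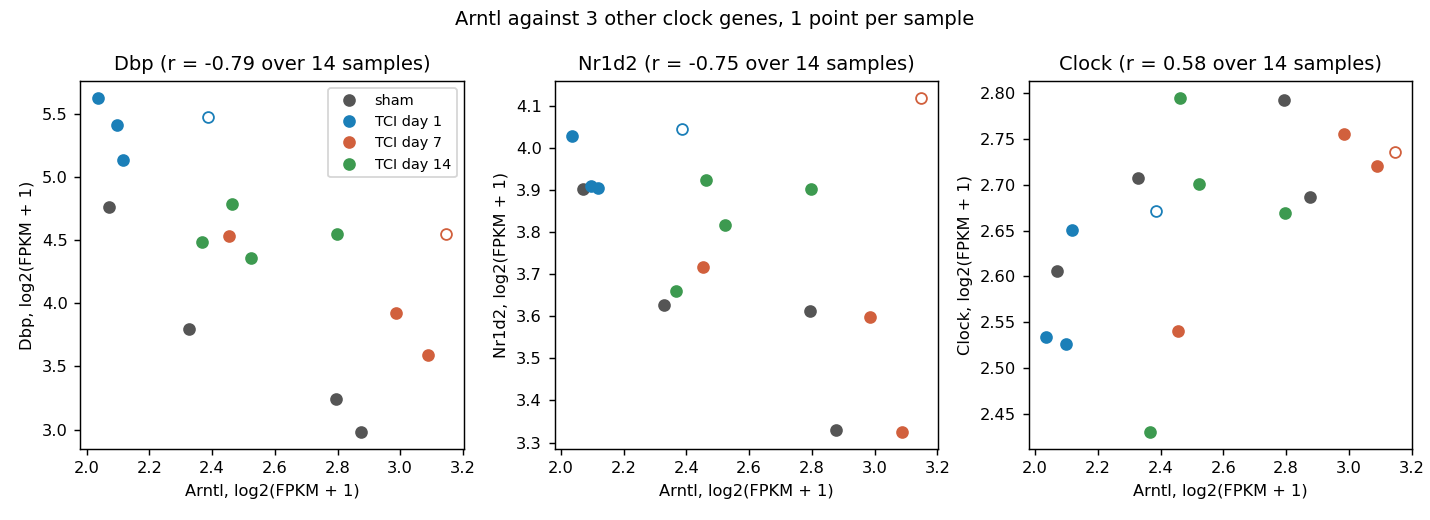
log2(FPKM + 1) of Dbp, Nr1d2 and Clock (vertical axes) against that of Arntl (horizontal axis), 1 point per sample, coloured by group, with open circles for the 2 left-out samples. Dbp (r = -0.79 over 14 samples) and Nr1d2 (-0.75) are lower where Arntl is higher, and Clock (0.58) is higher.

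The genes whose pattern over the 14 samples was most like that of Dbp, by Pearson r among the 14022 other tested genes, were Nr1d1 (0.92), Nr1d2 (0.89), Tef (0.89), Mia (0.86) and LOC103694857 (0.85). Tef is, like Dbp, a PAR bZIP factor. Ciart was the 6th (0.84) and Per3 the 18th (0.74). On deviations from the group means Nr1d2 was the 2nd, Nr1d1 the 4th, Tef the 5th and Ciart the 7th, and Arntl had the second lowest r of all genes. The genes most like Arntl were Sigirr (0.87), Rcbtb2 (0.87), Cd93 (0.86), Bcl11b (0.86) and Umps (0.86), none of them a gene of the lists used here. Nfil3, a repressor that competes with Dbp and Tef at D-boxes, was the 28th (0.79), and Tef had the lowest r to Arntl of all 14022 genes (-0.90). On deviations from the group means Nfil3 was the 375th and Tef the third lowest, and in all 16 samples Nfil3 was the 254th (0.70) and Tef the 218th lowest (-0.64). These ranks describe 14 samples that share group differences.

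Of 18 further genes of the clock and its modifiers, 14 passed the filter. None of the 14 was called on TCI D1 or TCI D7, against 0% and 17.9% of all tested genes. On TCI D14 1 was called, against 15.1%. This was Cry2, the second cryptochrome, which rose from 26.6 ± 1.27 to 30.8 ± 2.05 FPKM (SD, n = 4 each, log2 difference 0.20, SE 0.05, limma, adjusted p = 0.0252). Tef had 24.6 ± 3.05 FPKM in sham and 29.8 ± 1.13 on TCI D1 (log2 difference 0.28, SE 0.10, adjusted p = 0.873). Nfil3 went the other way, with 2.30 ± 0.896 FPKM in sham, 1.67 ± 0.245 on TCI D1 and 2.86 ± 0.165 on TCI D7, and passed in none of these contrasts. Csnk1d, a casein kinase that phosphorylates PER proteins, lay at 71.5 ± 1.84 FPKM in sham and 70.1 ± 1.95 on TCI D1 (log2 difference -0.03, SE 0.04, adjusted p = 0.994).

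Of 5 genes listed as outputs of the clock, Usp2, Tsc22d3 and Wee1 were called on no day. Nampt, the rate-limiting enzyme of NAD salvage, was called higher on TCI D7, at 16.9 ± 0.604 against 9.23 ± 0.511 FPKM (log2 difference 0.81, SE 0.25, limma, adjusted p = 0.0417). Tspan4, a tetraspanin, was called higher on TCI D14, at 10.8 ± 1.90 against 6.87 ± 1.63 FPKM (log2 difference 0.60, SE 0.17, adjusted p = 0.0356). On TCI D1 Nampt stood at 9.24 ± 0.755 FPKM. None of the 5 was called there, but neither was any of the 14023 tested genes (0%). That count therefore cannot show whether these outputs differed. Macrophage markers were called higher for 6 of 6 genes on TCI D7 and 4 of 6 on TCI D14. Their sum had a median of 95.9 FPKM on TCI D7 and 67.1 on TCI D14. Tspan4, at 9.11 ± 2.36 FPKM on TCI D7, was not called on that day and had its highest mean on TCI D14. The part of macrophages in the values of Nampt and Tspan4 was not tested.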

How the data were processed

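DRG samples of 16 rats were measured by RNA sequencing, with groups and replicate numbers from the sample labels. The authors mapped reads with HISAT and Bowtie2 and estimated expression with RSEM. They deposited 1 table of FPKM values per sample, already divided by gene length and mapped fragments. The labels name CASAVA 1.4 and Bowtie2, and the genome build is not given in the sources used here. FPKM keeps no read totals, so no counting error could be computed, and few fragments stand behind low values such as those of Ciart.

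From these tables log2(FPKM + 1) was computed for genes that reached 1 FPKM in 3 or more samples (14023 genes for 14 samples, 14087 for 16). All 4 groups entered 1 fit of limma 3.58.1 (R 4.3.3, lmFit and eBayes with an intensity trend), with Benjamini-Hochberg adjustment over all tested genes and an adjusted p of at most 0.05 for a call. The study's cut-offs were counted beside it. Errors of log2 differences are standard errors of that fit, which pools the spread of the 4 groups. The procedure was tested on simulated data. Correlations used 100000 permutations (SciPy 1.17.1, two-sided), adjusted over 9 pairs. At most 2.59% of the values above 0 were identical between any pair of samples, and none was taken for a copy. Each sample was another rat. The methods of the study give 2 rats per cage, but which samples shared a cage or a session is not stated. Alternatives were all 16 samples, only the groups compared, no trend, 3 other scalings, 2 other filters, a pseudocount of 0.1, the replicate number as a block and each sample left out in turn. The 16 samples with the block, and those on deviations from group means, were added after seeing the data.

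The members and gene lists were chosen with earlier results of these data known. Genes named are the 10 members, the further clock and output lists, and the 5 genes most like Arntl and Dbp. Thra was named for its overlap with Nr1d1. Values of 1 listed gene are not reported here. The test on counts foreseen in the design was not used because the tables hold FPKM. Motifs were searched in RefSeq promoter windows of GRCr8. Cell type lists, including endothelium, adipocytes, satellite glia and immediate early genes, were summed as FPKM per sample.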

Additional observations from a re-analysis of the deposited data

Results flagged for a closer look

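Each group of 4 samples was looked at for a lone sample, for the 10 clock genes in 4 groups. Of these 40 groups 2 had one, where chance gives about 1 in 20. Per1 was at 22.46 FPKM in TCI D14 replicate 1, and Per2 was at 4.32 FPKM in TCI D7 replicate 3.

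The difference from sham on TCI D7 was not the same as on TCI D1 for 2 genes, by the test of TCI D7 against TCI D1. It was 0.76 on the log2 scale for Arntl and -1.38 for Dbp. Both lost the call with single samples left out.

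The samples left out by the study held values above every sham sample. In TCI D1 replicate 2 these were Per2 at 3.05, Per3 at 8.91, Nr1d1 at 28.97, Nr1d2 at 15.51, Dbp at 43.57 and Ciart at 1.91 FPKM. In TCI D7 replicate 3, the sample with 23134 FPKM of muscle genes, these were Arntl at 7.86, Per1 at 18.79, Per2 at 4.32, Nr1d1 at 19.95 and Nr1d2 at 16.37 FPKM.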

How the results depend on the processing

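Of the 60 log2 differences of the members (10 genes in 6 contrasts), 18 changed sign under at least 1 alternative. All 18 were at most 0.16 in size with an adjusted p of at least 0.509 as reported, and none passed after the change. In all 16 samples these were Per2 (-0.15 to 0.07) and Nr1d2 (-0.07 to 0.07) on TCI D7 against sham, and Per2 (0.05 to -0.18) and Per1 (0.00 to -0.15) on TCI D14 against TCI D7. Of 187 alternative values for counts of calls, 150 stayed within 1.5 times the reported count and 37 moved. A count of 0 that remained 0 was taken as having stayed. The reported count was 0 for TCI D1 and TCI D7 against sham and for TCI D14 against TCI D1 and TCI D7. The 150 are therefore no measure of how steady the counts above 0 were. Against sham, quantile normalization called 1 gene on TCI D7. On TCI D14 the count of 2 became 3 with quantile normalization or with each sample centred on its median. It became 1 without a filter, with a mean of at least 5 FPKM, with the replicate number as a block and with the block in all 16 samples. It became 0 with only the groups compared or with the cut-offs of the study. Between TCI D7 and TCI D1 the count of 2 became 4 with quantile normalization or with each sample centred on its median, 1 without a filter or with a mean of at least 5 FPKM, 5 with only the groups compared, and 0 with the replicate block or the cut-offs of the study. Between TCI D14 and TCI D1 only the groups compared gave 1. The F test gave 0 with the replicate block. With each sample left out in turn the counts ran from 0 to 1 on TCI D1, 1 to 3 on TCI D14, 0 to 5 for TCI D7 against TCI D1 and 1 to 4 for the F test, and were 0 throughout in the other 3 contrasts. The relation of Arntl passed for 3 pairs in all 16 samples, 1 without the 2 farthest samples, and 0 on deviations from the group means, also in all 16. With a mean of at least 5 FPKM, Ciart (mean 1.80) and Arntl (mean 4.82) fell below the filter and were no longer tested. Nr1d1 on TCI D14 against sham and Dbp between TCI D7 and TCI D1 were still called there. The cut-offs of the study are stricter than the one used for a call here. The cause of the other moves was not tested, beyond the smaller number of samples where some were left out.

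Samples that share a replicate number did not deviate together (median r 0.00 over 18 pairs, from -0.10 to 0.27, against 0.00 over 55 pairs of different numbers), so samples were treated as sharing only a number. Under the block the log2 differences between TCI D7 and TCI D1 were 0.62 for Arntl and -1.26 for Dbp, and why calls were lost was not tested. Of single-gene values, 270 kept their side of the threshold, 51 lost it and 23 gained it. Low FPKM limits what can be said of Ciart and Per2, and 3 samples per group on TCI D1 and TCI D7 limit every contrast with them.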
